A study of Ovis aries with 26 samples.

Results

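The 9 genes described here encode the transforming growth factor beta (TGF-beta) ligands TGFB1, TGFB2 and TGFB3, the receptors TGFBR1, TGFBR2 and TGFBR3, the latent TGF-beta binding proteins LTBP1 and LTBP4, and TGFBI, a secreted matrix protein whose gene is induced by TGF-beta. They were taken by name from the 24478 genes counted in droplet-based single-cell RNA-seq of whole sheep pancreas, and all 9 were present. The sheep carried either an intact CFTR gene (WT), one disrupted copy (CFTR+/-, HZ in the labels) or none (CFTR-/-, CF), CFTR being the chloride and bicarbonate channel that is lost in cystic fibrosis. Tissue came from fetuses at 80 and 120 days of gestation and from lambs at term. In all there were 26 libraries from 23 animals. At 80 days there were 3 cloned CFTR-/- fetuses and a comparison group of 4 naturally bred fetuses, of which replicates 1 and 3 were WT and replicates 2 and 4 were CFTR+/-. All 4 are called the WT group here. At 120 days there were 3 WT fetuses, 4 cloned male CFTR-/- fetuses and 2 naturally bred female CFTR-/- twins (replicates 5 and 6). At term there were 4 WT and 3 CFTR-/- lambs, and of the CFTR-/- lambs replicates 1 and 2 were naturally bred females and replicate 3 was a cloned male. All fetuses at 80 days were male. Of the WT fetuses at 120 days 2 were male and 1 was female, and of the WT lambs 3 were male and 1 was female. Sex was therefore not balanced between CFTR-/- and WT animals at 120 days and term, and the fits held no term for it. All clones were made by somatic cell nuclear transfer from 1 male fibroblast line, so that they are genetic copies of 1 donor, and in them genotype and cloning cannot be told apart.

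TGF-beta ligands are secreted in a latent form, in which the mature cytokine stays bound to its own propeptide and, through it, to a latent TGF-beta binding protein that anchors the complex in the extracellular matrix. Once released, a ligand binds TGFBR2, which recruits and phosphorylates TGFBR1, and the active pair signals through SMAD2 and SMAD3. TGFBR3 (betaglycan) has no kinase activity of its own and presents ligand, TGFB2 in particular, to the signalling receptors. In the pancreas the pathway is best known for activating stellate cells, which then lay down collagen, and for its part in acinar and endocrine development.

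Of 109501 deposited barcodes, 79510 were kept as cells (over 200 and under 6000 genes and under 25% mitochondrial UMIs, a UMI being 1 counted transcript molecule) and 61730 of these, or 77.6%, fell in clusters that could be named from marker genes. Each cluster name below is short for cells that resemble that type, and the clusters were built without the 9 genes, the other genes of the pathway and the ribosomal and mitochondrial genes. Libraries held between 943 and 9543 kept cells and between 7841217 and 171256169 UMIs. No 2 libraries shared more than 0.422% of their barcodes. UMIs were summed per animal and lineage, and levels are given as CPM, the UMIs of a gene per 1000000 UMIs of that lineage and animal. WT term replicate 1 had under 20 cells in most lineages and cloned CFTR-/- replicate 3 at 120 days was the shallowest library. CFTR transcripts were still counted in duct-like cells of every group, between 66.3 and 594.8 CPM, so that the genotype labels could not be checked from the targeted gene.

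Among the ligands, TGFB1, the isoform most often tied to fibrosis and immune regulation, had its highest levels in blood-derived and endothelial cells. Its mean level was 61.0 CPM ± 15.2 (SD, n = 16 animals) in macrophage-like cells, 50.5 ± 20.2 (n = 23) in endothelial-like cells, 49.3 ± 4.49 (n = 3) in neutrophil-like cells and 43.2 ± 15.9 (n = 11) in T-cell-like cells, and neighbours in this order differed by less than their spread. In duct-like and acinar-like cells the TGFB1 level was 2.08 ± 2.15 (n = 23) and 2.03 ± 0.792 CPM (n = 22). TGFB2, a ligand with broad roles in organ development, was highest in stromal fibroblast-like cells at 146 ± 100 CPM (n = 22), followed by stellate- or mural-like cells at 99.9 ± 62.5 (n = 21), and was almost absent from acinar-like cells at 0.103 ± 0.138 (n = 22). Duct-like cells held TGFB2 at 18.2 ± 18.5 CPM (n = 23), a spread as large as the mean. TGFB3 was a transcript of the mesenchyme, at 61.4 ± 32.5 CPM (n = 21) in stellate- or mural-like and 50.2 ± 44.6 (n = 22) in stromal fibroblast-like cells, and below 10 CPM in each of the other lineages.

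**Figure D1:**
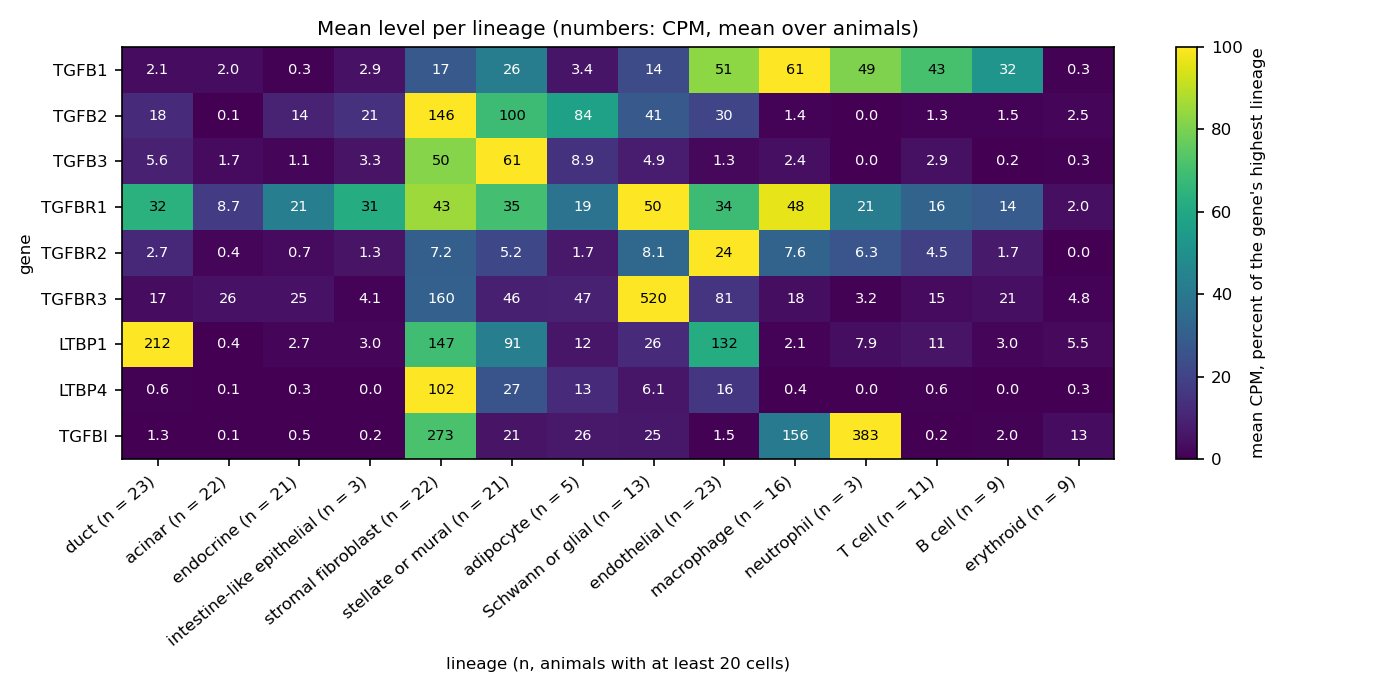
Level of each of the 9 genes (rows) in the 14 lineages that had cells in 3 or more animals (columns), as the mean CPM over animals, coloured within each gene as a percentage of that gene's highest lineage. TGFB2, TGFB3, LTBP4 and TGFBI shared high levels in stromal fibroblast-like cells, while LTBP1, as a mean over all groups, was highest in duct-like cells and TGFBR3 in Schwann- or glial-like cells.

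Among the receptors, TGFBR1, the kinase that phosphorylates SMADs, lay at 50.1 CPM ± 23.5 (n = 13) in Schwann- or glial-like cells and 48.3 ± 17.0 (n = 16) in macrophage-like cells, and was counted in every animal of the duct-like, endocrine-like and acinar-like lineages, at 31.9 ± 11.4, 21.5 ± 4.86 and 8.66 ± 6.02 CPM. TGFBR2, the ligand-binding kinase, was highest in endothelial-like cells at 24.0 ± 12.6 CPM (n = 23). The gap to the next lineage, Schwann- or glial-like cells at 8.05 ± 9.35 CPM (n = 13), was larger than either SD. Duct-like cells held TGFBR2 at 2.71 ± 2.05 CPM and acinar-like cells at 0.430 ± 0.464, so that in these epithelial lineages the counts were sparse, with 386 and 178 UMIs over all animals. TGFBR3 had its highest mean over all groups in Schwann- or glial-like cells at 520 ± 323 CPM (n = 13), followed by stromal fibroblast-like cells at 160 ± 59.3 (n = 22) and endothelial-like cells at 80.8 ± 55.4 (n = 23). The gap varied with the group. In CFTR-/- fetuses at 80 days TGFBR3 was 986 ± 146 CPM in Schwann- or glial-like and 108 ± 16.5 CPM in stromal fibroblast-like cells (n = 3). In the WT group at that age it was 314 ± 29.0 (n = 2) and 209 ± 76.6 CPM (n = 4), and in WT fetuses at 120 days 229 ± 41.3 (n = 2) and 167 ± 21.6 CPM (n = 3). In CFTR-/- lambs these lineages overlapped, at 198 and 259 CPM against 135 to 231 CPM.

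Of the latent TGF-beta binding proteins, LTBP1 had its highest mean over all groups in duct-like cells at 212 ± 75.5 CPM (n = 23), and stromal fibroblast-like and endothelial-like cells followed at 147 ± 80.6 and 132 ± 66.4 CPM, differences smaller than the spread. The order was not the same in every group. In CFTR-/- fetuses at 80 days LTBP1 was 260 ± 90.1 CPM in stromal fibroblast-like and 227 ± 78.5 CPM in endothelial-like cells against 195 ± 13.9 CPM in duct-like cells (n = 3), and in the cloned fetuses at 120 days 135 ± 81.8 CPM in stromal fibroblast-like against 111 ± 44.3 CPM in duct-like cells (n = 4). LTBP4, which is also needed for elastic fibre assembly, was a stromal fibroblast transcript at 102 ± 55.1 CPM (n = 22), against 26.5 ± 10.8 (n = 21) in stellate- or mural-like cells and 0.630 ± 0.590 (n = 23) in duct-like cells. TGFBI reached 273 ± 219 CPM (n = 22) in stromal fibroblast-like and 156 ± 72.9 (n = 16) in macrophage-like cells. Its highest mean, 383 ± 194 CPM in neutrophil-like cells, rested on 3 animals and 104 UMIs. In the 3 CFTR-/- lambs TGFBI had a higher mean in macrophage-like cells, at 111 to 284 CPM (mean 216), than in stromal fibroblast-like cells, at 42.9 to 147 CPM (mean 99.99), with overlap and no test.

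The lineage that gave the largest share of a transcript's UMIs was the one with the highest level for TGFB2, TGFBR2, LTBP1 and LTBP4, and another one for TGFB1, TGFB3, TGFBR1, TGFBR3 and TGFBI. The shares are over named cells, and the UMIs that lay in unnamed cells and were left out differed between the genes. They were 36.1% for TGFB3, 22.0% for TGFB1, 21.8% for TGFBR1, 17.9% for TGFBR3 and 13.0% for TGFBR2, and between 6.42% and 7.32% for TGFB2, LTBP1, LTBP4 and TGFBI, so that shares are not compared between genes. A share also counts any free RNA read with the cells of a lineage. Acinar markers, for instance, summed to 1837 to 71703 CPM in endothelial-like cells of WT lambs. The size of this background was not measured for the 9 genes. Whether a share from a lineage of low level, such as that of TGFB1 in acinar-like cells (2.03 CPM), was made by those cells is therefore not known. Of the UMIs of each animal that fell in named cells, duct-like cells gave 66.8% ± 23.0 (SD, n = 23) of LTBP1, and stromal fibroblast-like cells gave 66.0% ± 20.9 of LTBP4 and 67.8% ± 25.7 of TGFBI. TGFB2 came to 34.6% ± 23.4 from stromal fibroblast-like and to 22.9% ± 23.1 from duct-like cells, TGFB3 to 31.7% ± 18.9 from stromal fibroblast-like and to 26.3% ± 16.5 from stellate- or mural-like cells, and TGFB1 to 28.7% ± 12.3 from endothelial-like and to 21.3% ± 18.1 from acinar-like cells. The largest share of TGFBR2 was endothelial (35.4% ± 17.5). For TGFBR1 it was ductal (31.1% ± 17.1) and for TGFBR3 acinar (31.8% ± 26.9), although neither lineage had the highest level of that receptor.

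These shares average over ages, and the leading lineage was not the same at each. Stromal fibroblast-like cells gave 61.8% ± 13.6 of TGFB2 at 80 days (n = 7), while at term duct-like cells gave 40.8% ± 33.7 and stromal fibroblast-like cells 21.1% ± 19.5 (n = 7). For TGFB3 the stromal share was 52.0% ± 16.4 at 80 days, and at term acinar-like cells gave 37.6% ± 25.4 and stromal fibroblast-like cells 13.3% ± 8.07. TGFBI came to 44.4% ± 29.1 from macrophage-like and to 43.5% ± 31.1 from stromal fibroblast-like cells at term. For TGFBR3 the acinar share was 35.7% ± 22.9 at 80 days and 18.3% ± 17.5 at term, beside 24.5% ± 18.7 from stromal fibroblast-like and 21.3% ± 18.2 from endothelial-like cells. For TGFBR1 acinar-like cells gave 29.1% ± 15.3 and duct-like cells 18.9% ± 5.42 at 80 days, and duct-like cells gave the larger share at the later ages. These values are given with no test, and the SDs at term were wide. Each age pools the WT group and the CFTR-/- animals, so that age and genotype are mixed in these shares. TGFB2 in duct-like cells, in particular, was higher in CFTR-/- than in most WT lambs at term, as given below.

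Across the 14 lineages, the gene whose mean level followed TGFB2 most closely among 5693 other genes was ADAM12, a metalloprotease of mesenchymal cells (Pearson's r = 0.94 on log2 CPM), and for TGFB3 it was the basement membrane collagen COL4A6 (r = 0.98). LTBP4 was followed most closely by FBLN5, an elastic fibre protein (r = 0.99), LTBP1 by COL21A1 (r = 0.95), TGFBR2 by the endothelial transcription factor ELK3 (r = 0.94) and TGFBR3 by the transcription factor NR2F1 (r = 0.93). TGFB1 was followed most closely by FXYD5 (r = 0.98), TGFBR1 by the gamma-secretase subunit NCSTN (r = 0.94) and TGFBI by TNFAIP6, a hyaluronan-binding matrix protein (r = 0.90). These values describe 14 points that come from the same libraries and differ in depth, and they were selected as the highest of many.

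To ask whether loss of CFTR altered these genes, CFTR-/- animals were compared with the WT group at each age within each lineage, with edgeR's quasi-likelihood test on summed UMIs and Benjamini-Hochberg adjustment over all genes of the lineage (a call being an adjusted p of at most 0.05). At 80 days TGFB2 was higher in duct-like cells and lower in Schwann- or glial-like cells of CFTR-/- fetuses, and none of the other 59 pairs of a gene and a lineage that could be tested was called. These 2 of 61 pairs stand beside 0.585% of all gene and lineage pairs called in the same comparison. An unadjusted p under 0.05 was found for 10 of the 61, beside 8.65% of all pairs.

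In duct-like cells at 80 days the TGFB2 level was 33.6, 28.8 and 33.8 CPM in the 3 CFTR-/- fetuses. In the WT group it was 9.38 and 6.31 CPM in the WT fetuses (replicates 1 and 3) and 14.5 and 6.23 CPM in the CFTR+/- fetuses (replicates 2 and 4). Every CFTR-/- fetus was above every fetus of the WT group, with the CFTR-/- values close together. The difference was 1.96 ± 0.49 (SE) on the log2 scale (95% interval 1.01 to 2.92, adjusted p = 0.0407 by edgeR), where 1.84% of genes tested in duct-like cells were called. The call was lost when any 1 of the 7 fetuses was left out, with adjusted p between 0.0688 and 0.140, and without both CFTR+/- fetuses (adjusted p = 0.218), while the log2 difference stayed between 1.84 and 2.19.

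At term TGFB2 in duct-like cells was 26.1, 58.8 and 73.4 CPM in CFTR-/- replicates 1, 2 and 3. It was 31.1 CPM in WT replicate 1 and 4.67, 4.42 and 4.74 CPM in WT replicates 2, 3 and 4. The groups overlapped through WT replicate 1, which was higher than CFTR-/- replicate 1, and the other WT lambs lay below every CFTR-/- lamb. The difference was 2.17 ± 0.45 (SE) on the log2 scale (95% interval 1.29 to 3.04, adjusted p = 0.00578 by edgeR), and without WT replicate 1 it was 2.96. The call was lost when term was fitted alone (adjusted p = 0.103) and with the replicate number as a block (adjusted p = 0.217). TGFB2 in duct-like cells was called alone among 48 tested pairs at term, where 1.28% of all pairs and 6.47% of the genes tested in duct-like cells were called. Of the 48, 8 had an unadjusted p under 0.05, beside 10.4% of all pairs.

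At 120 days the same pair was not called. TGFB2 in duct-like cells was 10.1, 9.66, 25.3 and 5.07 CPM in the cloned CFTR-/- fetuses, 6.24 and 4.02 CPM in the naturally bred ones and 8.58, 9.63 and 5.06 CPM in WT. Only cloned replicate 3, the shallowest library, stood above the rest. The log2 difference from WT was 0.54 for the cloned (95% interval -0.42 to 1.499) and -0.27 for the naturally bred fetuses (95% interval -1.41 to 0.87), with adjusted p = 0.679 and 0.888. These 2 comparisons share the WT fetuses. The genotype effect at 120 days minus that at 80 days was -1.43 on the log2 scale (adjusted p = 0.612) and that at term minus that at 80 days 0.20 (adjusted p = 0.996), so that a difference in the effect between ages was not shown.

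**Figure D2:**
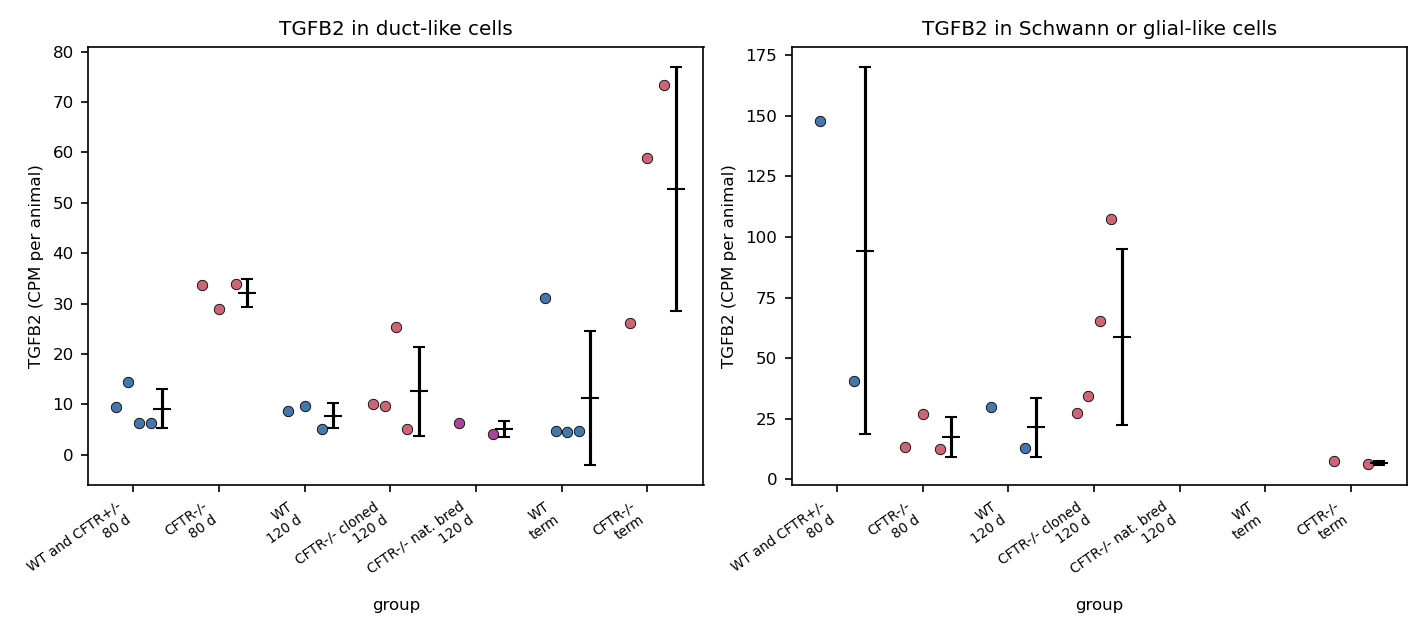
TGFB2 level in CPM for each animal in duct-like cells and in Schwann- or glial-like cells, by group and age, 1 point an animal. In duct-like cells the 3 CFTR-/- fetuses at 80 days (28.8 to 33.8 CPM) lay above the WT group, and at term WT replicate 1 (31.1 CPM) lay among the CFTR-/- lambs.

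The duct-like lineage was made of several clusters, and most of the CFTR-/- and WT cells lay in different ones. At 80 days the cluster led by APOA1, ANKRD1, DCDC2 and CFTR (cluster 16) held 1008 of the 1378 duct-like cells of the CFTR-/- fetuses and 42 of the 1015 of the WT group. Within it TGFB2 was 34.6 CPM pooled over cells in each of the groups, although the WT value rested on 21 UMIs. In the cluster led by AGT and SLC4A4 (cluster 15), where most WT duct-like cells lay, TGFB2 was 23.6 CPM in CFTR-/- cells and 6.71 CPM in WT cells, from 34 and 50 UMIs. By fetus these were 18.0, 15.9 and 49.6 CPM in CFTR-/- and 4.86 to 8.54 CPM in the WT group, and the first of the CFTR-/- values stands on 2 UMIs.

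At term the cluster led by APOA1, MMP7 and ANXA8 together with the keratins KRT19 and KRT7 (cluster 6) held 1597 of 2767 CFTR-/- and 32 of 1873 WT duct-like cells, with TGFB2 at 80.9 CPM in CFTR-/- and 79.7 in WT cells, the latter from 22 UMIs. A cluster led by the cell cycle genes CENPF and TOP2A (cluster 5) held TGFB2 at 76.2 CPM in CFTR-/- cells and 24.0 in 19 WT cells. In the AGT-led cluster 20 the values were 14.4 and 1.89 CPM, and in clusters 4 and 3 they were 27.8 against 15.4 and 21.2 against 17.5 CPM. At 120 days the cluster led by APOA1, FILIP1L and MMP7 (cluster 11) again had the highest TGFB2 level of the duct-like clusters in each group, at 26.7 CPM in cloned CFTR-/-, 67.6 in naturally bred CFTR-/- and 23.5 in WT cells, from 147, 30 and 14 UMIs. Cell numbers and pooled levels per cluster are given with no test, since the clusters were made from the same cells. The WT cells of cluster 6 are not split by lamb here. Over all duct-like cells at term, TGFB2 was counted in 22.1% of those of WT replicate 1 and in 4.30% to 5.68% of those of the other WT lambs.

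**Figure D3:**
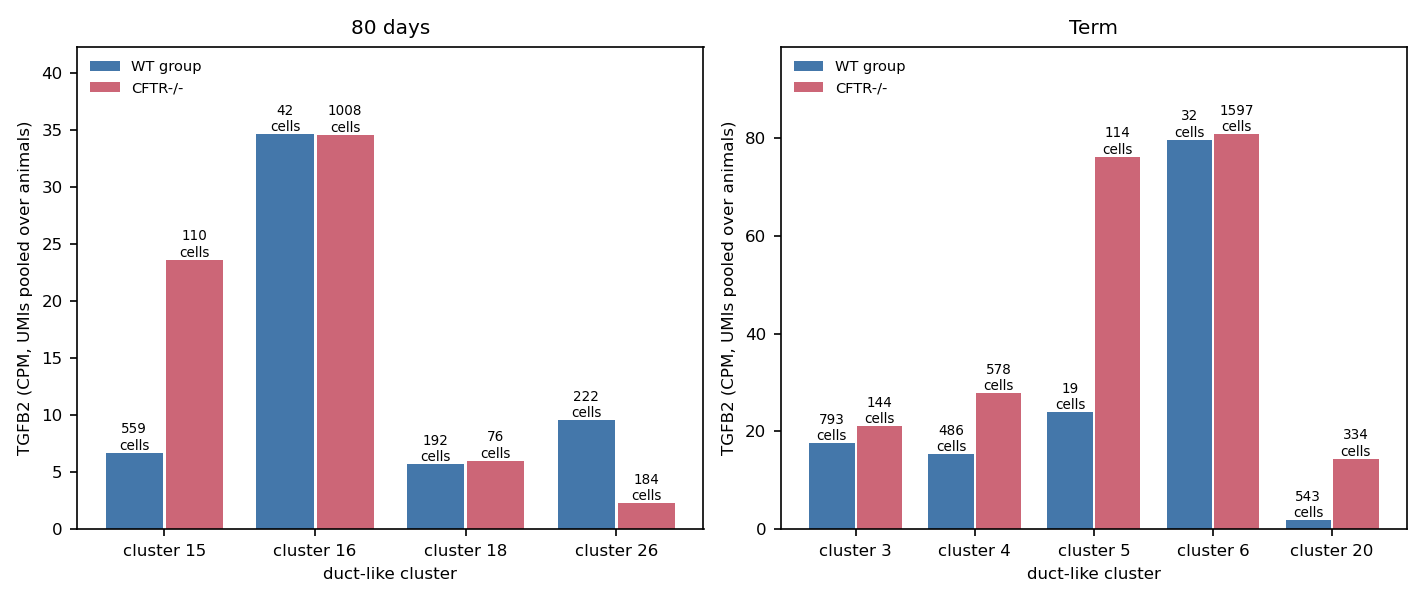
TGFB2 level in CPM, pooled over the cells of a group, in each duct-like cluster at 80 days and at term, with CFTR-/- and WT bars side by side and no error bars. Cluster 16 at 80 days (34.6 CPM in each group) and cluster 6 at term (80.9 and 79.7 CPM) had like pooled levels in CFTR-/- and WT cells, the WT values from 21 and 22 UMIs and not split by animal, while the AGT-led clusters 15 and 20 were higher in CFTR-/- cells.

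Markers of other cell types in the summed duct-like cells are given beside these results. At term the 15 stellate or mural markers summed to 301 to 1842 CPM in CFTR-/- and 73.5 to 177 CPM in WT lambs (RGS5 being at 0 in WT), and the 12 stromal fibroblast markers to 49.99 to 94.0 and 2.84 to 20.0 CPM (TCF21 at 0 in CFTR-/- and PDGFRA at 0 in WT). At 80 days the stellate or mural markers summed to 279 to 827 CPM in CFTR-/- and 249 to 341 CPM in the WT group, and the stromal markers to 169 to 321 and 152 to 1008 CPM, none being at 0. These ranges overlapped at 80 days, while those of 5 other lists did not. The acinar markers were lower in CFTR-/- fetuses, at 380 to 653 against 863 to 1863 CPM (PNLIP at 0 in both groups), and so were the endocrine markers, at 324 to 404 against 574 to 3791 CPM (NKX2-2 at 0 in CFTR-/-). Higher in CFTR-/- fetuses were the duct markers themselves, at 8788 to 9571 against 6399 to 8250 CPM, the mesothelial markers, at 25.5 to 36.1 against 2.28 to 21.6 CPM (UPK3B and CALB2 at 0 in both), and the Schwann or glial markers, at 119 to 126 against 83.0 to 111 CPM. At term the acinar markers overlapped, at 15714 to 45436 CPM in CFTR-/- and 17605 to 157816 CPM in WT. The macrophage markers did not, at 55.4 to 67.8 against 25.8 to 44.8 CPM (MSR1 at 0 in both), nor did the neutrophil markers, at 2.75 to 63.2 against 0 to 1.33 CPM (MMP8 at 0 in both), or the endothelial markers, at 9.16 to 29.2 against 7.01 to 8.54 CPM (CLDN5 at 0 in both). The part of these transcripts in the TGFB2 difference was not tested.

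In Schwann- or glial-like cells at 80 days TGFB2 was 13.3, 27.0 and 12.4 CPM in CFTR-/- fetuses. In the WT group only 2 fetuses had 20 or more such cells, WT replicate 1 with 148.0 CPM (51 UMIs) and CFTR+/- replicate 4 with 40.7 CPM (5 UMIs). The groups did not overlap, but the 2 fetuses of the WT group were far apart. The difference was -2.92 ± 0.50 (SE) on the log2 scale (adjusted p = 0.0278 by edgeR), where 0.362% of genes were called in this lineage. Without WT replicate 1 it was -1.36 with an adjusted p of 0.881, the lone CFTR+/- fetus then being assumed to vary like the other groups. Without CFTR-/- replicate 3 the adjusted p was 0.138 and with the marker score per cell 0.216. With at least 50 cells, with the replicate number as a block or without the CFTR+/- fetuses the pair has no test here. In the cluster of this lineage led by FABP7 and APOE (cluster 19), the pooled TGFB2 level was 28.3 CPM in 188 CFTR-/- cells and 118 CPM in 58 cells of the WT group. The stromal fibroblast markers in these cells summed to 7238 to 8776 CPM in CFTR-/- and 3847 to 5476 CPM in the WT group, and the Schwann or glial markers themselves to 4353 to 5412 and 2745 to 3447 CPM. The endothelial markers, at 15.5 to 29.1 against 32.6 to 34.8 CPM, and the intestine-like epithelial markers, at 1.84 to 5.80 against 8.15 to 23.2 CPM, were lower in CFTR-/- fetuses without overlap. The T cell, B cell and mast cell markers were at 0 in the WT group and at most 13.3 CPM in CFTR-/- fetuses. The part of these transcripts in the TGFB2 result, and in the TGFBR3 values of the same cells, was not tested.

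In the lineage where each gene was highest, edgeR called no difference between genotypes in any comparison that could be tested, under the settings used throughout. Some alternatives made calls, which are given beside the values. TGFB1 in macrophage-like cells at 80 days was 65.2, 55.0 and 65.9 CPM in CFTR-/- fetuses and 67.3, 66.0 and 71.4 CPM in WT group replicates 2, 3 and 4, a log2 difference of -0.07 ± 0.36 (95% interval -0.77 to 0.64, adjusted p = 1) although the groups did not overlap. At 120 days it was 86.8 and 49.98 CPM in cloned CFTR-/- replicates 1 and 2, 71.7 and 52.5 CPM in the naturally bred fetuses and 88.8 CPM in WT replicate 3, the only WT fetus with enough of these cells. At term it was 64.9, 46.0 and 39.9 CPM in CFTR-/- lambs and 48.8 and 35.8 CPM in WT replicates 2 and 4, with overlap.

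TGFB2 in stromal fibroblast-like cells, where its level was highest, was not called as changed at any age. At 80 days it was 140, 136 and 137 CPM in CFTR-/- fetuses and 159, 239, 232 and 166 CPM in WT group replicates 1 to 4, every CFTR-/- fetus lying below the WT group (log2 difference -0.52 ± 0.42, 95% interval -1.35 to 0.31, adjusted p = 1). At 120 days the cloned fetuses had 84.0, 68.6, 172 and 229 CPM, the naturally bred fetuses 142 and 90.1 CPM and WT 170, 124 and 117 CPM, with overlap. At term the CFTR-/- lambs had 29.2, 109 and 61.7 CPM and WT replicates 2, 3 and 4 had 49.6, 508 and 48.8 CPM, where the value of WT replicate 3 rested on 36 UMIs (log2 difference -0.86 ± 0.51, 95% interval -1.86 to 0.14, adjusted p = 0.735).

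TGFB3 in stellate- or mural-like cells at 80 days was 138, 113 and 86.0 CPM in CFTR-/- fetuses and 23.6, 22.2, 67.1 and 72.2 CPM in WT group replicates 1 to 4. Every CFTR-/- fetus was above the WT group, and the log2 difference of 1.29 ± 0.45 (95% interval 0.40 to 2.18) had an adjusted p of 1 over the 9287 genes tested there, of which edgeR called 0 (322 had an unadjusted p under 0.05). Without a filter on low counts the pair was called. At 120 days TGFB3 there was 88.8, 47.5, 80.4 and 18.8 CPM in the cloned fetuses, 35.8 and 64.5 CPM in the naturally bred ones and 65.9, 106 and 45.4 CPM in WT, with overlap. At term the levels were 47.5, 44.7 and 40.9 CPM in CFTR-/- lambs, between the 16.8 and 64.4 CPM of WT replicates 2 and 4.

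Among the receptors, TGFBR3 in Schwann- or glial-like cells at 80 days was 841, 985 and 1133 CPM in CFTR-/- fetuses and 293 and 334 CPM in the WT group. The groups did not overlap, and the log2 difference was 1.52 ± 0.40 (95% interval 0.73 to 2.31, adjusted p = 0.114 by edgeR). It was called with DESeq2, without a filter on low counts, when the age was fitted alone and with cells under 10% mitochondrial UMIs. At 120 days the cloned fetuses had 712, 524, 717 and 298 CPM and WT replicates 1 and 3 had 200 and 258 CPM, again without overlap (log2 difference 0.92 ± 0.39, adjusted p = 0.387). At term CFTR-/- replicates 2 and 3 had 198 and 259 CPM, with no WT lamb to compare.

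TGFBR1 in the same cells at 80 days overlapped, at 33.9, 67.6 and 56.3 CPM in CFTR-/- fetuses and 49.3 and 32.6 CPM in the WT group (log2 difference 0.04, 95% interval -0.90 to 0.97). At 120 days it was 43.1, 29.1, 98.2 and 59.6 CPM in the cloned fetuses and 90.0 and 25.4 CPM in WT replicates 1 and 3, and at term 29.4 and 37.1 CPM in CFTR-/- replicates 2 and 3, with no WT lamb to compare. TGFBR2 in endothelial-like cells at 120 days was 19.3, 39.2, 65.8 and 19.0 CPM in cloned CFTR-/- fetuses, 23.8 and 25.0 CPM in the naturally bred ones and 13.8, 7.73 and 19.3 CPM in WT. The log2 difference of the cloned fetuses from WT was 1.01 ± 0.45 (adjusted p = 0.387), with cloned replicate 3 the highest. At 80 days TGFBR2 was 13.6, 24.4 and 27.5 CPM in CFTR-/- fetuses and 10.3, 21.5, 26.4 and 29.9 CPM in WT group replicates 1 to 4 (log2 difference -0.04). At term it was 38.4, 21.8 and 18.7 CPM in CFTR-/- lambs and 20.5, 10.8, 16.7 and 38.7 CPM in WT lambs (log2 difference 0.30), and the groups overlapped at both ages.

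LTBP4 in stromal fibroblast-like cells overlapped between CFTR-/- and WT animals at each age. At 80 days it was 62.8, 66.7 and 61.7 CPM in CFTR-/- fetuses and 52.6, 81.4, 87.1 and 75.5 CPM in WT group replicates 1 to 4, and the 95% interval of the log2 difference ran from -0.82 to 0.40. At 120 days it was 96.0, 176, 221 and 175 CPM in the cloned fetuses, 117 and 94.6 CPM in the naturally bred ones and 117, 117 and 74.7 CPM in WT. At term it was 21.5, 103 and 84.8 CPM in CFTR-/- lambs and 54.7, 240 and 70.5 CPM in WT replicates 2, 3 and 4, the value of WT replicate 3 resting on 17 UMIs. TGFBI in neutrophil-like cells could be read in 3 lambs only and was not tested, at 327 and 599 CPM in WT replicates 2 and 4 and 223 CPM in CFTR-/- replicate 1. In stromal fibroblast-like cells TGFBI was tested and not called at any age. At 80 days the means were 302 CPM in CFTR-/- and 181 CPM in the WT group, without overlap (log2 difference 0.74 ± 0.36, adjusted p = 0.742 by edgeR). The log2 difference from WT at 120 days was 0.21 for the cloned fetuses, with overlap, and -0.52 for the naturally bred ones, without overlap. At term it was -0.06, with overlap.

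At 120 days 0 of 49 tested pairs were called between cloned CFTR-/- and WT fetuses by edgeR, where 0.0325% of all pairs were called. An unadjusted p under 0.05 was found for 8 of the 49, beside 9.29% of all pairs, and DESeq2 called 1 of the 49. That pair was LTBP1 in duct-like cells, at 163, 54.6, 116 and 111 CPM in the cloned fetuses and 248, 193 and 286 CPM in WT. Every cloned fetus lay below every WT fetus, and the log2 difference was -1.15 ± 0.26 (SE) with an adjusted p of 0.0898 by edgeR. Without cloned replicate 1, the highest of its group, edgeR also called it. At term LTBP1 in duct-like cells was 203, 242 and 125 CPM in CFTR-/- and 418, 215, 296 and 188 CPM in WT, a log2 difference of -0.80 ± 0.26 (adjusted p = 0.0714) in which the groups overlapped. It was called with DESeq2, at cluster resolution 1 and with the marker score per cell. At 80 days it was 187, 211 and 188 CPM in CFTR-/- and 267, 279, 247 and 258 CPM in WT group replicates 1 to 4, without overlap (log2 difference -0.33 ± 0.26, adjusted p = 0.599). Between naturally bred CFTR-/- and WT fetuses at 120 days, 0 of 44 pairs were called by edgeR and 0 by DESeq2, where edgeR called 0.23% of all pairs. Of the 44, 4 had an unadjusted p under 0.05, beside 11.4% of all pairs.

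The pair with the largest absolute log2 difference of the 48 tested at term was TGFBR3 in macrophage-like cells, which was not called. It was 3.07, 4.15 and 0.593 CPM in CFTR-/- lambs, from 13, 10 and 1 UMIs, and 23.0 and 17.9 CPM in WT replicates 2 and 4, from 16 and 4 UMIs. The CFTR-/- lambs lay lower without overlap, with a log2 difference of -2.83 ± 0.72 (adjusted p = 0.376), and edgeR called it without a filter on low counts. In these cells the T cell markers were lower in CFTR-/- lambs, at 42.7 to 85.7 against 125 to 303 CPM. So were the dendritic markers, at 101 to 316 against 394 to 681 CPM, and the B cell, mast cell and erythroid markers. The megakaryocyte, endocrine and stellate or mural markers were higher, and none of these lists overlapped. Their part was not tested.

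Also not called at term, TGFB3 in stromal fibroblast-like cells was 27.7, 26.4 and 164 CPM in CFTR-/- lambs and 8.47, 28.2 and 3.61 CPM in WT replicates 2, 3 and 4, the last WT values from 2 UMIs each. CFTR-/- replicate 3 stood far above the others and WT replicate 3 overlapped the CFTR-/- group. The log2 difference was 2.66 ± 0.59 (adjusted p = 0.0945), and edgeR called it when CFTR-/- replicate 1 was left out and without a filter on low counts, as did DESeq2. TGFB1, sparse in duct-like cells, had means of 3.95 and 0.908 CPM there without overlap (log2 difference 1.46 ± 0.67, adjusted p = 0.217). TGFBR1 and TGFBR2 were called in no lineage in any comparison of genotypes, by edgeR or by DESeq2, although TGFBR1 in stromal fibroblast-like and TGFBR2 in endothelial-like cells had an unadjusted p of 0.0419 and 0.0348 between cloned CFTR-/- and WT fetuses at 120 days by edgeR. Over the 9 genes in duct-like cells at term the median log2 difference was 0.47, against 0.00 over the other 13999 genes tested, and at 80 days it was -0.19 against -0.02. The term median is the value of TGFBR2 (95% interval -0.65 to 1.60). The genes went both ways at term, with LTBP1, TGFBR3 and TGFBI at -0.80, -0.68 and -0.14, TGFBR1 at 0.00 and the others higher in CFTR-/- lambs.

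**Figure D4:**
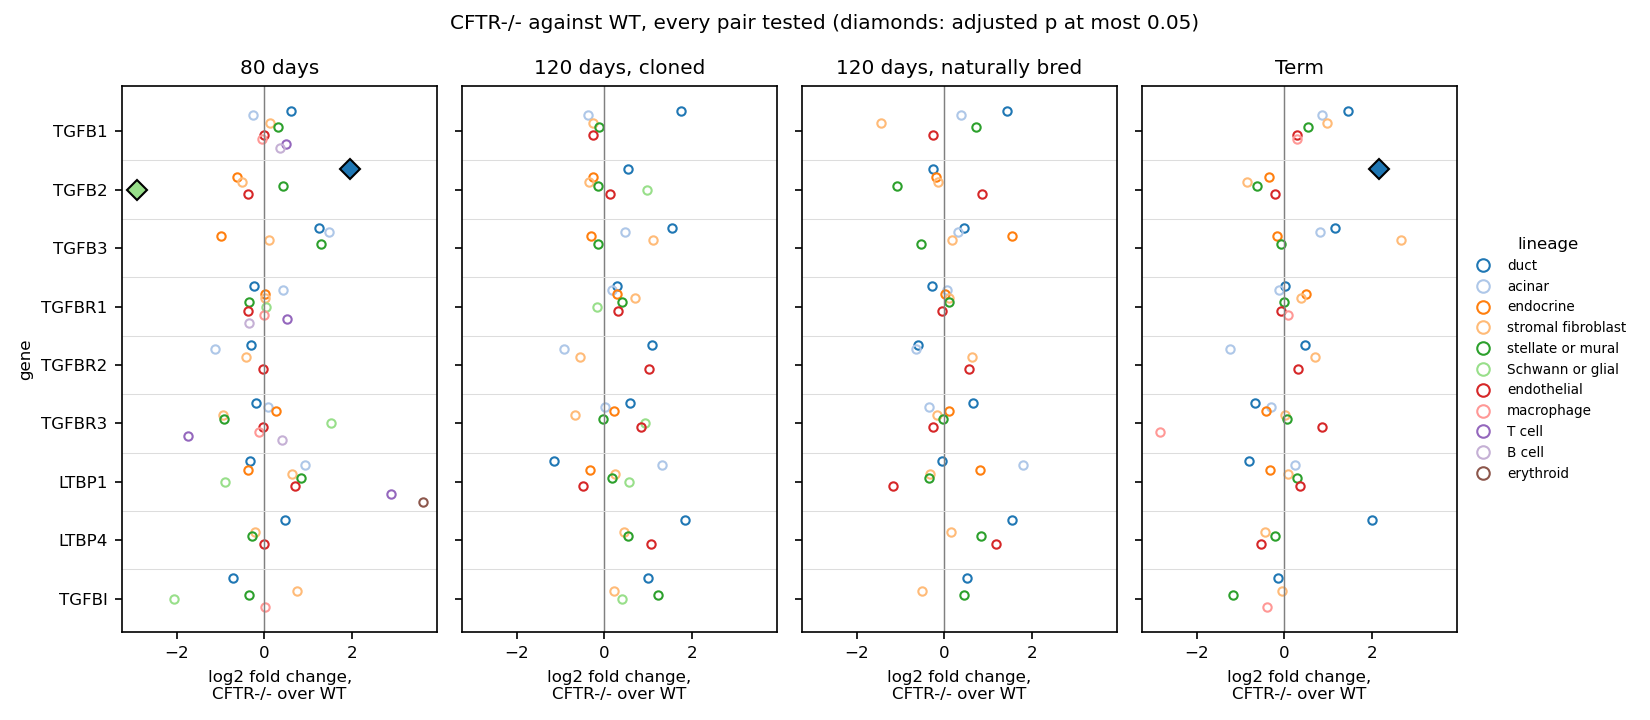
Log2 difference between CFTR-/- and WT animals for every tested pair of a gene and a lineage, in 4 panels, which are 80 days, 120 days with the clones, 120 days with the natural twins, and term. Diamonds mark calls at an adjusted p of at most 0.05, which were TGFB2 in duct-like cells (1.96 at 80 days and 2.17 at term) and in Schwann- or glial-like cells at 80 days (-2.92).

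The other 46 genes of the pathway were SMADs, other receptors, inhibitors, genes of ligand latency and activation, and target genes. This list was chosen with earlier results of these data known. Its called shares, here and below, are therefore a description beside those of all pairs and no test of the pathway. At 80 days 2 of 322 pairs rose and 0 fell in CFTR-/- fetuses, COL4A1, a basement membrane collagen, in duct-like cells (1442 ± 309 CPM against 353 ± 43.8 (SD), n = 3 and 4, log2 difference 2.11, adjusted p = 0.00410) and LTBP3, a further latent TGF-beta binding protein, in acinar-like cells (24.7 ± 9.17 against 6.09 ± 0.370 CPM, log2 difference 1.87, adjusted p = 0.0100). The B cell, T cell, dendritic and mesothelial markers in these acinar-like cells were higher in CFTR-/- fetuses without overlap, at most 51.9 CPM, and their part was not tested. The called pairs are 0.621% of those tested, near the 0.585% of all pairs called there, and DESeq2 called 8 as higher and 0 as lower. At term 8 of 249 pairs (3.21%, beside 1.28% of all pairs) rose and 0 fell, and DESeq2 called 12 as higher and 0 as lower. All 8 were in duct-like cells, being 20% of the 40 pairs tested there, beside 6.47% of all genes tested there. Of these 8, 4 were target genes and 4 genes of latency and activation. They included COL4A1 (533 ± 230 against 50.4 ± 27.8 CPM, log2 difference 3.18), the matrix glycoproteins TNC (223 ± 155 against 1.63 ± 1.60 CPM, 6.52) and FN1 (60.8 ± 58.1 against 4.12 ± 2.17 CPM, 3.49), the metalloprotease inhibitor TIMP1 (335 ± 105 against 32.3 ± 24.9 CPM, 3.14) and the integrin subunit ITGB8, which takes part in the release of latent ligand (76.0 ± 19.0 against 30.9 ± 12.1 CPM, 1.02). The stromal fibroblast and stellate or mural markers in the duct-like cells are given above, and their part in these 8 pairs was not tested. For cloned fetuses at 120 days 0 of 245 pairs were called by edgeR and 2 by DESeq2. An unadjusted p under 0.05 was found for 44 of the 245, beside 9.29% of all pairs. For naturally bred fetuses 0 of 223 rose and 2 fell, the cell cycle inhibitor CDKN1A and THBS1, a matrix protein that can activate latent TGF-beta, both in acinar-like cells. These are 0.897% of the pairs, beside 0.23% of all pairs, and DESeq2 called 12 as lower and 0 as higher. In these cells the acinar markers summed to 113502 to 136121 CPM in the naturally bred and 87260 to 109939 CPM in WT fetuses, and the duct markers to 550 to 644 and 658 to 847 CPM. Also without overlap, at levels of at most 24.9 CPM, the T cell and intestine-like epithelial markers were lower in the naturally bred fetuses. The macrophage, erythroid and adipocyte markers were higher without overlap. The part of these transcripts in the 2 calls was not tested.

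With age, WT animals were compared between successive stages. From 80 to 120 days 0 of 57 pairs were called by edgeR and 0 by DESeq2, where edgeR called 1.32% of all pairs. Of the 57, 6 had an unadjusted p under 0.05, beside 13.3% of all pairs. From 120 days to term 4 of 48 pairs were called, beside 6.03% of all pairs and 16.2% of the genes tested in acinar-like cells. In acinar-like cells TGFBR3 fell and TGFB3 rose, TGFB1 fell narrowly, and in stromal fibroblast-like cells TGFBI fell.

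TGFBR3 in acinar-like cells was 26.8, 23.2 and 18.3 CPM in WT fetuses at 120 days and 6.28, 7.94, 2.88 and 8.70 CPM in WT lambs, without overlap. The log2 difference was -1.81 ± 0.26 (SE, adjusted p = 0.000265). The level was already 39.5 to 59.9 CPM in the WT group at 80 days, 42.0 to 79.4 CPM in CFTR-/- fetuses at that age and 2.16 to 7.32 CPM in CFTR-/- lambs. On the scaling of the test WT fetuses did not show the drop in CPM between 80 and 120 days (log2 difference -0.02, 95% interval -0.50 to 0.47, adjusted p = 0.989), since plain CPM moves the median log2 difference of all genes there by -1.03 relative to that scaling. TGFB3 in acinar-like cells was 0.193, 0.234 and 0.166 CPM at 120 days, from 10, 8 and 1 UMIs, and 0.896, 1.85, 1.44 and 9.07 CPM at term, without overlap. WT term replicate 4 stood far above the others. The log2 difference was 4.26 ± 0.75 (SE, adjusted p = 0.00101), and 2.94 without that lamb (adjusted p = 0.00328). In CFTR-/- lambs it was 6.16, 4.18 and 5.56 CPM. The WT group at 80 days had 0.0973 to 0.728 CPM, a range that held the 120-day values, with CPM shifted between these ages as given for TGFBR3. The difference between genotypes at term was not called in acinar-like cells (log2 difference 0.80 ± 0.54, adjusted p = 0.505), nor in duct-like cells (1.15 ± 0.60, adjusted p = 0.291), and both were called without WT replicate 4. The stellate or mural markers in the same cells summed to 13.2 to 22.6 CPM at 120 days (RGS5 and CSPG4 at 0) and 13.4 to 28.7 CPM at term. Other lists did not overlap between these ages. The acinar markers themselves summed to 87260 to 109939 CPM at 120 days and 135103 to 247658 CPM at term, and the mesothelial markers to 0.499 to 1.24 and 1.52 to 5.32 CPM. Their part in the TGFBR3, TGFB3 and TGFB1 results in acinar-like cells, and that of free RNA, was not tested.

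TGFB1 in acinar-like cells was 2.24, 1.79 and 1.99 CPM at 120 days and 1.79, 1.36, 1.01 and 0.600 CPM at term, touching at WT term replicate 1 (2 UMIs). Its log2 difference of -0.97 ± 0.33 (adjusted p = 0.0483) lost its call under 13 of 17 alternatives. TGFBI in stromal fibroblast-like cells was 381, 325 and 365 CPM at 120 days and 62.3, 325 and 54.2 CPM in WT term replicates 2, 3 and 4. The value of term replicate 3 came from 23 UMIs and lay just below the lowest fetal value, and the other lambs were far lower. The log2 difference was -1.65 ± 0.43 (adjusted p = 0.0221), where 7.26% of genes tested in this lineage were called. The mean had been 181 CPM in the WT group at 80 days and 357 CPM in WT fetuses at 120 days, without overlap. That rise (log2 difference 1.10 ± 0.36) was not called (adjusted p = 0.210 by edgeR). With at least 50 cells, with separate fits per age and with the replicate block it was called. Several marker lists in these cells did not overlap between the ages. Acinar markers summed to 3478 to 5130 CPM at 120 days and 7819 to 78834 CPM at term, adipocyte markers to 0 to 5.90 and 43.3 to 1612 CPM and intestine-like epithelial markers to 1.56 to 3.93 and 10.7 to 14.1 CPM. The stromal fibroblast markers themselves were lower at term, at 21968 to 34691 against 35969 to 59181 CPM, as were the stellate or mural markers, at 931 to 1567 against 2038 to 2369 CPM, the mesothelial markers, at 12.2 to 16.3 against 22.6 to 24.9 CPM, and the neutrophil markers, at 0 to 1.37 against 1.56 to 6.77 CPM. Their part in the result was not tested. The call was lost without WT 120 day replicate 1 or 3 or without WT term replicate 2 or 4, with adjusted p between 0.0519 and 0.115, when ages were fitted separately (0.0680) and with the replicate number as a block (0.629).

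**Figure D5:**
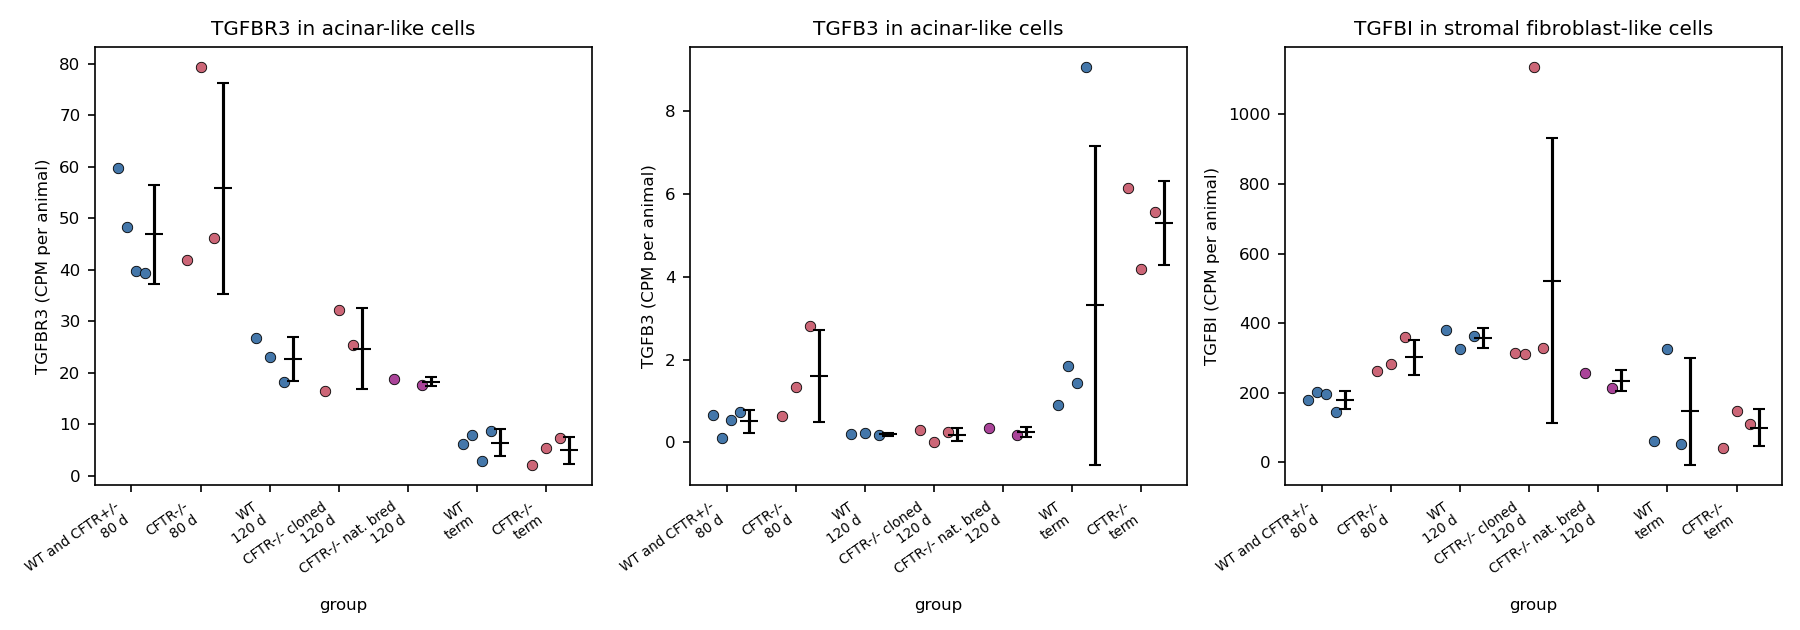
Levels in CPM of TGFBR3 and TGFB3 in acinar-like cells and of TGFBI in stromal fibroblast-like cells by group and age, 1 point an animal with the mean ± SD of the group beside the points. TGFBR3 was lower at term (2.88 to 8.70 CPM) than at 120 days (18.3 to 26.8 CPM) in WT animals, TGFB3 was higher at term, and for TGFBI cloned CFTR-/- replicate 3 at 120 days (1136 CPM) lay far above the other animals.

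Of the other pathway genes, 5 of 296 pairs rose and 6 fell in WT from 80 to 120 days, and 2 of 245 rose and 6 fell from 120 days to term. POSTN, a TGF-beta-induced matrix protein of the same family as TGFBI, fell in stromal fibroblast-like cells from 1483 ± 45.2 CPM to 62.9 ± 43.0 CPM at term (SD, n = 3 each, log2 difference -3.99, adjusted p = 0.000874), and ID1 fell in acinar-like cells from 213 ± 95.6 to 1.84 ± 2.59 CPM between 80 and 120 days (n = 4 and 3, log2 difference -6.49, adjusted p = 0.00365). The called pairs were 3.72% and 3.27% of those tested, beside 1.32% and 6.03% of all pairs, and DESeq2 called 6 as higher and 8 as lower, then 5 and 11. In acinar-like cells between 80 and 120 days, CPM is shifted as given for TGFBR3. The acinar markers in them summed to 44471 to 63477 CPM at 80 days and 87260 to 109939 CPM at 120 days. The stromal fibroblast markers summed to 28.6 to 54.4 and 2.36 to 8.35 CPM, and most other lists were also lower at 120 days without overlap. Their part in the ID1 result was not tested.

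From 80 to 120 days in the cloned CFTR-/- fetuses 1 of 53 pairs was called, beside 3.39% of all pairs. Of the 53, 14 had an unadjusted p under 0.05, beside 18.7% of all pairs. The called pair was TGFBI in Schwann- or glial-like cells, at 40.2, 29.1, 76.4 and 11.9 CPM at 120 days against 5.53, 11.6 and 11.9 CPM at 80 days. The lowest fetus at 120 days overlapped the highest at 80 days, and the log2 difference was 2.37 ± 0.47 (SE, adjusted p = 0.0152), where 2.09% of genes tested in this lineage were called. Without replicate 1 or 3 at either age the adjusted p was 0.0512 to 0.0876 and the call was lost, as it was with the marker score per cell (0.301). The dendritic cell markers in these cells were higher at 120 days without overlap, at 7.94 to 18.2 against 1.91 to 5.80 CPM, and their part in the result was not tested. In the WT group the TGFBI mean in this lineage was 36.3 CPM at 80 days and 31.4 CPM at 120 days (n = 2 each, log2 difference -0.10, not called). At 80 days the CFTR-/- fetuses lay below the WT group without overlap (-2.07 ± 0.63, adjusted p = 0.189 by edgeR). That pair was called without a filter on low counts. The genotype effect on TGFBI at 120 days minus that at 80 days was 2.47 (adjusted p = 0.542 by edgeR). LTBP4 was higher at 120 days without overlap, and not called by edgeR, in 2 lineages of the clones. In stromal fibroblast-like cells it was 167 against 63.7 CPM (log2 difference 1.21 ± 0.33, adjusted p = 0.145), and DESeq2 called it. In endothelial-like cells it was 29.1 against 10.5 CPM (1.59 ± 0.53, adjusted p = 0.0800), and 3 alternatives called it. Of the other pathway genes 7 of 271 pairs rose and 16 fell (8.49%, beside 3.39% of all pairs), and DESeq2 called 9 as higher and 15 as lower. CDKN1A rose in Schwann- or glial-like, duct-like and endothelial-like cells (log2 differences 3.14, 3.14 and 3.35), and COL4A1 fell in duct-like cells from 1442 ± 309 CPM to 348 ± 235 CPM (-1.77, adjusted p = 0.00449). TGFB2 in duct-like cells was lower at 120 days than at 80 days in every cloned CFTR-/- fetus, with a log2 difference of -1.21 ± 0.45 that was not called (adjusted p = 0.106). It was called without cloned replicate 3 at 120 days, the shallowest library, and with cells under 10% mitochondrial UMIs. In duct-like cells of the clones the stromal fibroblast markers summed to 169 to 321 CPM at 80 days and 17.9 to 47.0 CPM at 120 days. The duct markers came to 8788 to 9571 and 5777 to 8393 CPM, and the acinar markers to 380 to 653 and 12745 to 18331 CPM. The T cell, intestine-like epithelial and mesothelial markers were also lower at 120 days without overlap, and the dendritic markers higher. Their part in the COL4A1 and TGFB2 values was not tested. The genotype effect was called as different between ages for none of 49 pairs (120 against 80 days, 0.00911% of all pairs called) and none of 48 (term against 80 days, 0.0578%) by edgeR. An unadjusted p under 0.05 was found for 4 and 3 of these pairs, beside 5.90% and 6.88% of all pairs. DESeq2 called 0 in each.

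The naturally bred and the cloned CFTR-/- fetuses at 120 days differ in breeding and also in sex, which cannot be told apart. Between them 1 of 54 pairs was called, beside 0.554% of all pairs and 2.68% of the genes tested in duct-like cells. LTBP1 in duct-like cells was 183 and 204 CPM in the naturally bred fetuses and 163, 54.6, 116 and 111 CPM in the cloned fetuses, without overlap. The log2 difference was 1.09 ± 0.28 (SE, adjusted p = 0.0446). It lost its call without naturally bred replicate 5 or 6 (adjusted p = 0.377 and 0.345, the lone twin being assumed to vary like the other groups) and without cloned replicate 2 or 3 (0.0699 and 0.0682). Of 273 pairs of the other pathway genes, 11 were lower in the naturally bred fetuses and 0 higher (4.03%, beside 0.554% of all pairs), 10 of them in duct-like cells, and DESeq2 called 22 as lower and 0 as higher. Among these were the target gene CTGF (52.6 ± 18.2 against 576 ± 272 CPM, log2 difference -3.15), the SMAD inhibitors SKI and SKIL (-1.74 and -1.33) and THBS1 (106 ± 26.5 against 1291 ± 578 CPM, -3.33). In the same duct-like cells the acinar markers summed to 50222 to 55176 CPM in the naturally bred and 12745 to 18331 CPM in the cloned fetuses, and the stellate or mural markers to 131 to 143 and 184 to 511 CPM. The duct markers themselves came to 4791 to 5072 and 5777 to 8393 CPM. Also without overlap, at levels of at most 15.7 CPM, the dendritic, megakaryocyte and neutrophil markers were lower and the erythroid markers higher in the naturally bred fetuses. The part of these transcripts in the LTBP1 result and in the pathway genes was not tested.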

How the data were processed

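Single-cell suspensions of fetal and newborn sheep pancreas were sequenced by the authors, and the deposited values are UMI counts per gene and cell barcode, made with Cell Ranger version 3.1.0 on the Oar_v4.0 genome. Cells with over 200 and under 6000 genes and under 25% mitochondrial UMIs were kept. Cells of each age were clustered together with scanpy version 1.11.5 (2000 variable genes, 30 components, 15 neighbours, Leiden resolution 2), leaving out the 9 genes, the other pathway genes and ribosomal and mitochondrial genes, and clusters were named where at least 3 markers of a type were among their 50 leading genes. No doublets were removed (an alternative left out 4.36% of cells by Scrublet score).

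UMI counts were summed per animal and lineage, the libraries of an animal together. Animals with at least 20 cells of a lineage entered 1 edgeR version 4.0.16 quasi-likelihood fit per lineage over 7 groups (TMM scaling, default filter on low counts), with R version 4.3.3, and 12 lineages had at least 2 such animals in both groups of a comparison. Between 3088 and 14008 genes were tested per lineage, and p-values were Benjamini-Hochberg adjusted over these, with a threshold of 0.05. Fold changes therefore refer to TMM-scaled counts, while CPM is per 1000000 UMIs of the lineage. Each SE of a log2 difference is its absolute value divided by the square root of the F statistic of the test. The 95% intervals take that SE with a normal distribution, so an interval and its p-value can disagree. The script was tested on simulated data. Alternatives were DESeq2 version 1.42.0, RLE size factors, no filter, at least 50 cells, under 10% mitochondrial UMIs, marker scores per cell, resolution 1, no doublets, separate fits per age, a replicate block, no CFTR+/- fetuses, cloned and naturally bred CFTR-/- fetuses in 1 group and leaving out each animal. Those for the difference between ages, for natural breeding and for the shares were chosen after seeing the data.

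The 9 genes, the pathway list and the marker lists were chosen with earlier results of these data known. Values per animal are given for called pairs and for the lineage of highest level of each gene, and the other lineages are given in part. The other pathway genes named are called ones, and some items are not reported here. Values in pairs that were not called were chosen after they were seen. Animals within a group were separate fetuses or lambs, some of them litter mates or clones of 1 line. Library totals of 7841217 to 171256169 UMIs set the precision, and lineage totals per animal ran from 54475 to 89188666 UMIs. Sequences of the genes were not used here.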

Additional observations from a re-analysis of the deposited data

Results flagged for a closer look

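A sample far from the others of its group was found in 4 of the 27 groups of 4 or more animals that were tested over the called pairs, where chance gives about 1 in 20. TGFB1 in acinar-like cells was 3.66 CPM in WT replicate 3 at 80 days, against 2.53 to 2.65 CPM in the other fetuses of the WT group. TGFB2 in duct-like cells was 31.1 CPM in WT replicate 1 at term, against 4.42 to 4.74 CPM in the other WT lambs, and the library of this lamb also had under 20 cells of most other lineages. TGFB3 in acinar-like cells was 9.07 CPM in WT replicate 4 at term, against 0.896 to 1.85 CPM in the other WT lambs. TGFBI in stromal fibroblast-like cells was 1136 CPM in cloned CFTR-/- replicate 3 at 120 days, against 310 to 328 CPM in the other cloned fetuses, and this was the shallowest library.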

How the results depend on the processing

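No called pair changed direction under any alternative that was run. TGFBR3 and TGFB3 in acinar-like cells between 120 days and term kept their calls in all 17 alternatives, with log2 differences of -2.11 to -1.57 and 2.77 to 4.57. TGFB2 in duct-like cells at term kept its call in 15 of 17, losing it when the age was fitted alone (adjusted p = 0.103) and with the replicate block (0.217). TGFB2 in duct-like cells at 80 days kept it in 10 of 18.

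The number of called pairs of the 9 genes moved by more than 1.5 times as follows, and smaller moves are not listed (at 80 days 3 with DESeq2 and under 10% mitochondrial UMIs, and for WT from 120 days to term 3 to 5 under several settings). At 80 days (2 called) it was 1 with at least 50 cells, with the marker score per cell and with the replicate block, 5 without a filter on low counts, 4 with separate fits per age, 0 without the CFTR+/- fetuses, and 0 to 1 with 1 fetus left out, 0 without WT replicate 1 or CFTR-/- replicate 3. For cloned fetuses at 120 days (0 called) it was 1 with DESeq2 and 0 to 1 with 1 fetus left out (1 without cloned replicate 1), and for naturally bred fetuses 0 throughout the leave-one-out fits (0 to 0). At term (1 called) it was 3 with DESeq2 and without a filter, 2 at resolution 1 and with the marker score, 0 with separate fits and with the replicate block, and 1 to 3 with 1 lamb left out, 3 without WT replicate 4 and 2 without CFTR-/- replicate 1. For WT from 80 to 120 days (0 called) it was 1 with at least 50 cells, at resolution 1, with separate fits and with the replicate block, and 0 to 0 with 1 fetus left out. For WT from 120 days to term (4 called) it was 2 with the replicate block and 2 to 3 with 1 animal left out, 2 without WT replicate 1 or 3 at 120 days or WT replicate 4 at term. For the cloned fetuses from 80 to 120 days (1 called) it was 3 with DESeq2, with separate fits and under 10% mitochondrial UMIs, 5 without a filter, 0 with the marker score, 4 with the replicate block, and 0 to 1 with 1 fetus left out, 0 without replicate 1 at either age or replicate 3 at 80 days. For the difference of the genotype effect between ages (0 called) it was 1 without a filter and 0 to 0 with 1 animal left out. For naturally bred against cloned fetuses (1 called) it was 0 at resolution 1, without a filter, under 10% mitochondrial UMIs and without doublets, and 0 to 1 with 1 fetus left out. The cause of these changes was not tested. The mean TGFBI level in neutrophil-like cells was 124 CPM with the marker score per cell, against 383 CPM.

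The donor numbers shared by groups did not pair the animals, since the correlations of same-numbered animals' deviations from their group means ran from -0.16 to 0.29. The replicate block therefore stands only as an alternative, with the counts given above. Where 1 animal of a group was left, it was assumed to vary like the other groups. Groups of 2 to 4 animals and lineages with few cells limit what could be detected, and pairs that were not called are not shown to be equal.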
